A study of Homo sapiens with 6 samples.

Results

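The 56 genes described here encode proteins that carry a cell from G2 through mitosis and cytokinesis. They were taken by gene name from a list of mitosis and G2/M genes, and all 56 were found among the 57819 genes of the deposited table. RNA was measured in IMR90 ER:Ras cells. These are human lung fibroblasts carrying Ras fused to an estrogen receptor domain that 4-hydroxytamoxifen (4OHT) switches on. Ras activation drives such cells into senescence. All cells received 200 nM 4OHT for 3 days. The control group was given a scramble siRNA (siSCR) and the knockdown group an siRNA that targets sin-lncRNA, a long noncoding RNA, with 3 polyA libraries in each group. Vehicle-treated cells were not analysed here, so each difference below is one between 4OHT-treated samples of these cells. How far the cells had become senescent by then was not measured in the data used here.

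Mitotic genes are switched on late in the cell cycle by the MuvB complex together with the transcription factors B-MYB and FOXM1, acting through a promoter element called the cell cycle genes homology region (CHR). In resting cells, and when p53 raises the CDK inhibitor p21, the MuvB core joins E2F4 and a pocket protein in the DREAM complex, which keeps these genes low. Senescent cells have left the cycle, and low levels of mitotic transcripts are among their common features. In bulk RNA, fewer cells in G2 and mitosis and less mitotic RNA per cell cannot be told apart.

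Of the 56 genes, 40 were lower after knockdown at an adjusted p under 0.05 (limma, Benjamini-Hochberg over all genes tested), 0 were higher and 16 did not pass. Among all 19048 genes tested, 23.5% were called lower and 41.0% in either direction. Each of the 56 had a negative log2 fold change, from -0.88 for CENPM to -0.01 for SMC4, against 55.1% of all genes tested. The median was -0.49, beside -0.04 over all genes tested. Knockdown levels ran from 53.7% to 99.3% of control with a median of 70.6%, so the change in any single gene was moderate, and 30 of the 56 lay between -0.4 and -0.6. All 3 knockdown libraries were below all 3 controls for 33 of the genes, against 28.3% of all genes tested. The libraries overlapped for the other 23, of which 8 were called lower, and the 1 gene that did not overlap and was not called was AURKB.

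**Figure D1:**
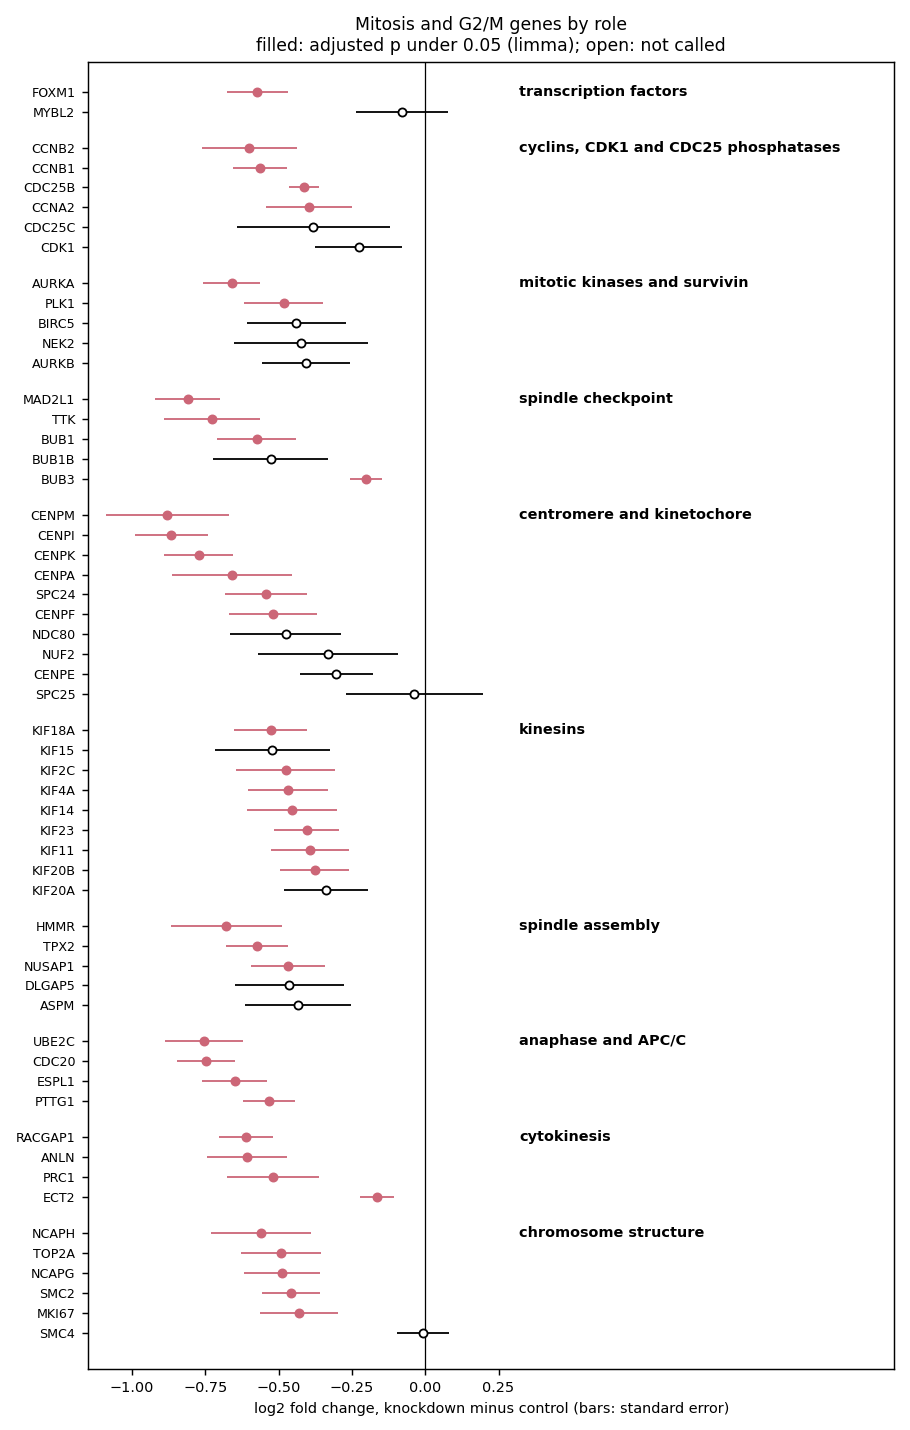
Log2 fold change of each of the 56 genes, knockdown minus control, with its standard error, in blocks by role. Filled points passed an adjusted p of 0.05 with limma and open points did not. All points lie left of 0, between -0.88 and -0.01, with SMC4, SPC25 and MYBL2 nearest to 0.

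The genes that did not pass were mostly those with fewer reads. Of the 29 genes with a mean of at least 200 normalized reads per library, 24 were called lower, and of the 27 under 200 reads, 16 were. Genes called lower had a median of 277.2 normalized reads, a median log2 fold change of -0.54 and a median standard error of 0.13. Genes not called had a median of 137.4 reads, a log2 change of -0.39 and a standard error of 0.18. At an unadjusted p under 0.05, 49 of the 56 passed. A gene that was not called is therefore not shown to be unchanged.

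The libraries differed from each other within the groups as well. The total of reads in genes was between 30271192 and 50913672 in the controls and between 22117324 and 27882280 in the knockdowns. The targeted RNA fell from 4.17 ± 0.52 to 0.556 ± 0.076 RPM, reads scaled to library size (SD, n = 3), a log2 change of -2.86 (SE 0.18). Fibroblast markers summed to between 40014 and 41843 RPM in controls and between 40067 and 41516 RPM in knockdowns, with all 8 present. Single fibroblast markers did change: 4 were called lower and 4 higher, with log2 fold changes from -0.88 to 0.68. The 7 epithelial markers summed to at most 35.3 RPM in any library with KRT5 at 0, the 4 endothelial markers matched to at most 8.84 RPM with CDH5 at 0 in the controls, and the 6 immune markers to at most 0.641 RPM. Of the 5 epithelial markers tested, 3 were lower and 1 higher in the knockdown, and of the 2 endothelial ones 1 was higher. Their part in the results was not tested.

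Control replicate 1 stood apart for these genes. The level of each gene was set against the mean of the 3 controls, and the median over the 56 genes was -0.28, 0.16 and 0.13 in control replicates 1, 2 and 3 and -0.44, -0.68 and -0.41 in the knockdowns (log2). Control replicate 1 was the lowest control for 55 of the 56 genes, while it was the lowest control for 39.6% of all genes tested. Knockdown replicate 2 was the lowest knockdown for 43 of the 56. The 3 knockdowns lay below control replicates 2 and 3 for 52 genes and below control replicate 1 for 33. The 56 genes together held 647, 833 and 810 RPM in the controls and 594, 520 and 581 RPM in the knockdowns, so the summed levels did not overlap. Without control replicate 1, 51 genes were called lower, and 21.9% of all genes tested. Without control replicate 3, the most deeply sequenced library, 20 were called lower, and the median log2 fold change was then -0.42. The share of all genes tested called lower also fell in that fit, from 23.5% to 16.8%.

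**Figure D2:**
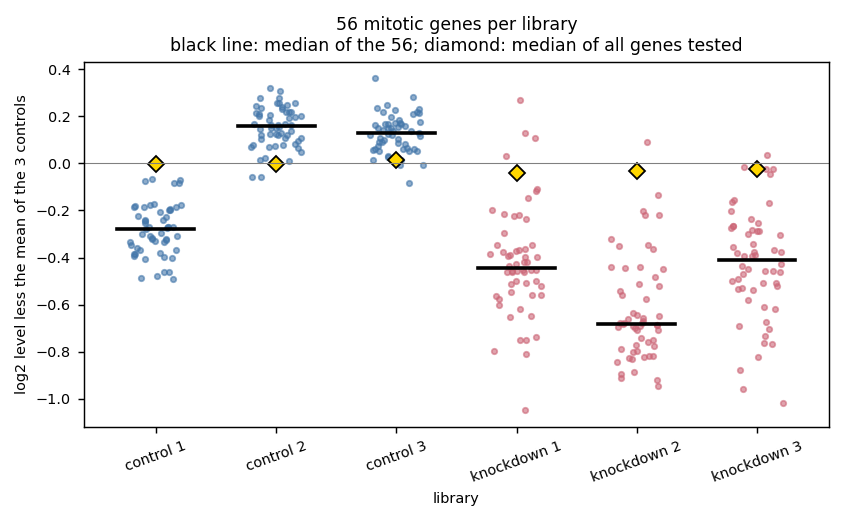
Log2 level of each of the 56 genes in each library, less the mean of the 3 controls. Points are genes, the black line is their median and the diamond is the median of all genes tested. The medians are -0.28, 0.16 and 0.13 in the controls and -0.44, -0.68 and -0.41 in the knockdowns, while the diamonds stay near 0.

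The promoters of these genes share sequence features. The genes were taken by name as mitotic, and the CHR is described above as an element of such genes. Its excess over all promoters is therefore not independent of the choice of list. RefSeq promoter windows (GRCh38.p14, 250 bases before to 50 after the start, 300 in all) were matched for 47 of the 56 genes. Both strands were searched for the CHR (TTTGAA or TTCGAA, of which TTCGAA is its own reverse complement). It was present in 32 of the 47 (68.1%), against 16.4% of all 35116 promoters and 12.1% of the 14820 promoters of genes tested. The CCAAT box, which NF-Y binds, was in 33 of 47 (70.2%) against 34.6% of all promoters and 34.4% of those of genes tested. Both were in 24 (51.1%) against 6.38% and 4.78%. E2F sites (TTTCCCGC, TTTGGCGC or TTTCGCGC) were in 4 of 47 (8.51%) against 2.74% of all promoters and 3.95% of those of genes tested. A CHR began within 60 bases of the start in 27 genes. It was found in 23 of the 32 matched genes that were called lower and in 9 of the 15 that were not. A CHR together with a CCAAT box was in 20 of those 32 and in 4 of those 15. A match of letters is a description of the window and does not show that a factor bound there.

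The 4 promoters shown are those of the called genes with the largest falls that had at least 50 normalized reads and a CHR in the window. They are printed 5′ to 3′ along the gene's strand from 250 bases before the start to base 30 of the transcript, with the CHR or its reverse complement TTCAAA, and the CCAAT box or its reverse complement ATTGG, in capitals. MAD2L1 lies on the minus strand at chr4:120066819-120067098, and the others lie on the plus strand: CDC20 at chr1:43358731-43359010, HMMR at chr5:163460382-163460661 and ESPL1 at chr12:53268049-53268328 (GRCh38.p14).
MAD2L1: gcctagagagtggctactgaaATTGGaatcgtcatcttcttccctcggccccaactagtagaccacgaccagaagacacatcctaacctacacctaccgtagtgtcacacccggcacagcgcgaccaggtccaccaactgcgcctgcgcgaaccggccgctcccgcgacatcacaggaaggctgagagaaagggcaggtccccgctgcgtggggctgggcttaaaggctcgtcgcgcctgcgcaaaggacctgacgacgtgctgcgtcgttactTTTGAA
CDC20: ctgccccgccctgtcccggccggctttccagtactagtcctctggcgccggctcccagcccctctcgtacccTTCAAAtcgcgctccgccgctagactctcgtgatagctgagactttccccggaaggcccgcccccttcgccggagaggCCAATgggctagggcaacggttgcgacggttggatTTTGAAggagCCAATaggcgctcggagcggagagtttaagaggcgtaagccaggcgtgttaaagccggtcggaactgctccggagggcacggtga
HMMR: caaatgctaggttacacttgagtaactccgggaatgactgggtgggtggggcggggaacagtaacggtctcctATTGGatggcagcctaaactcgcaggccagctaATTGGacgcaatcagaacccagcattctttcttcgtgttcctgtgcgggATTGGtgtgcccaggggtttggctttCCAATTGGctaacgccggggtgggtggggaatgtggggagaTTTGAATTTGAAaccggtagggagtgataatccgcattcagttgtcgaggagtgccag
ESPL1: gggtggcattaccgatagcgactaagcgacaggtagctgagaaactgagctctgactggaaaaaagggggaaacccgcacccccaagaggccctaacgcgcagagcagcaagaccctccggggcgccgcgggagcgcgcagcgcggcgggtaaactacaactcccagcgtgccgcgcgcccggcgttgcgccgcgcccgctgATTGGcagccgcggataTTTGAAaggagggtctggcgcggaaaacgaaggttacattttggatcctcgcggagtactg
In ESPL1 the CHR began 31 bases before the start and a CCAAT box on the opposite strand lay just upstream of it. CDC20 had a CHR 65 bases before the start between a pair of CCAAT boxes, and another on the opposite strand 178 bases before the start. HMMR had 2 CHR copies end to end, 28 and 22 bases before the start, and 5 CCAAT boxes, of which a pair overlapped as CCAATTGG. In MAD2L1 the CHR lay at base 25 of the transcript and the CCAAT box far upstream, on the opposite strand.

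Of the 2 transcription factors, FOXM1 fell and MYBL2 did not pass. FOXM1, which activates late G2 genes, had 15.0, 19.0 and 17.4 RPM in the controls and 12.4, 10.1 and 12.1 RPM in the knockdowns (ENSG00000111206.8, chr12:2966847-2986206 on hg19, minus strand). Every knockdown library was below every control, and the fall was to 67.1% of control, with a log2 change of -0.57 (SE 0.10, limma adjusted p = 0.0013). MYBL2, which encodes B-MYB, had 3.38, 4.63 and 4.63 RPM in the controls and 4.48, 3.33 and 4.10 RPM in the knockdowns. Its libraries overlapped, and its log2 fold change was -0.08 with a 95% interval of -0.42 to 0.27 (adjusted p = 0.72). That interval does not reach the median of the 56 genes, but the median has an error of its own from the same libraries. The difference between MYBL2 and the median was not tested. The ratio of FOXM1 to MYBL2, a pair chosen after the values were seen, was 4.45, 4.11 and 3.77 in the controls and 2.77, 3.03 and 2.95 in the knockdowns (exact permutation p = 0.1 over samples, two-sided, the smallest that 3 against 3 allows).

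The cyclin B genes and the phosphatase gene CDC25B fell while their kinase partner CDK1 did not pass the test. In this group of 6, 4 were lower, with a median log2 fold change of -0.41 over the 6. CCNB1 encodes cyclin B1, which activates CDK1 at mitotic entry, and had 22.7, 28.9 and 27.3 RPM in the controls and 18.4, 16.2 and 18.6 RPM in the knockdowns (chr5:68462837-68474072, plus strand). Its libraries did not overlap, and its log2 fold change was -0.56 (SE 0.09, adjusted p = 0.00071). CCNB2, the second B-type cyclin, had 4.99, 7.59 and 7.47 RPM against 4.75, 3.76 and 4.52 RPM, with a log2 change of -0.60 (SE 0.16, adjusted p = 0.013). Its lowest control was only just above its highest knockdown, and without control replicate 3 the call was lost (adjusted p = 0.063). CDC25B, which removes inhibitory phosphates from CDK1, varied little within its groups, with 39.8, 40.3 and 39.8 RPM against 29.9, 29.3 and 30.7 RPM. Its log2 change of -0.41 had the smallest standard error of the 56, 0.05, and the lowest adjusted p, 9.1e-05.

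CDK1, the kinase that drives mitosis, had 5.35, 7.63 and 7.29 RPM in the controls and 5.74, 4.91 and 6.55 RPM in the knockdowns. Its log2 fold change was -0.23 with a 95% interval of -0.55 to 0.10 (adjusted p = 0.25), and control replicate 1 lay inside the range of the knockdowns. That interval includes the median of the 56 genes (-0.49) and the value of CDC25B (-0.41). It ends just short of the values of CCNB1 (-0.56) and CCNB2 (-0.60). Their own 95% intervals, -0.77 to -0.36 and -0.96 to -0.24, overlap that of CDK1. The intervals therefore do not show that CDK1 differed from the cyclin B genes. The ratio of CCNB1 to CDK1 was 4.25, 3.79 and 3.74 in the controls and 3.20, 3.30 and 2.84 in the knockdowns (exact permutation p = 0.1, pair chosen after the values were seen). CCNA2, the A-type cyclin of S and G2, was called at the threshold (log2 fold change -0.40, SE 0.15, adjusted p = 0.0495). Its libraries overlapped, and the call was lost in 14 of 17 other fits that changed the processing or left out a library. Among these was each fit without 1 library other than control replicate 1, with adjusted p up to 0.185 without control replicate 3. CDC25C did not pass at -0.38 (adjusted p = 0.27), with as few as 15 reads in a library.

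**Figure D3:**
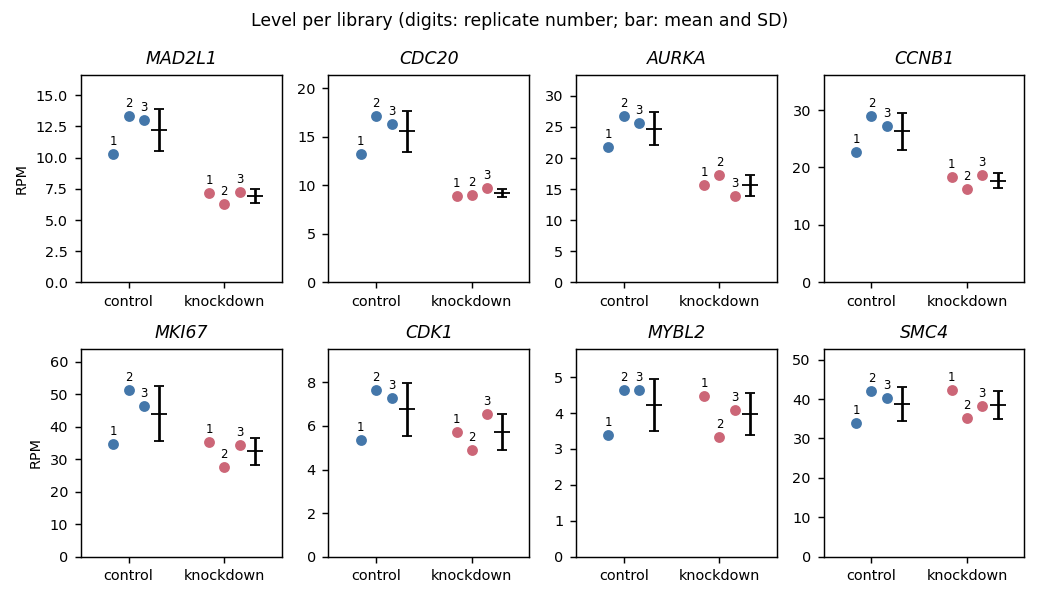
Level in RPM of 8 of the genes in each library, with digits for the replicate number and a bar for the mean and SD (n = 3). Groups are separate for MAD2L1, CDC20, AURKA and CCNB1 and overlap for MKI67, CDK1, MYBL2 and SMC4. Control replicate 1 is the lowest control in each panel.

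Among the mitotic kinases and survivin, 2 of 5 were called lower and the median was -0.44. AURKA, the kinase of centrosome maturation and spindle assembly, had 21.7, 26.7 and 25.7 RPM in the controls and 15.7, 17.2 and 13.9 RPM in the knockdowns (chr20:54944445-54967393, minus strand). The groups were well apart, at 63.2% of control with a log2 change of -0.66 (SE 0.10, adjusted p = 0.00031). PLK1, which acts from mitotic entry to cytokinesis, had 9.40, 12.1 and 12.8 RPM against 7.22, 7.68 and 9.62 RPM. Knockdown replicate 3 was above control replicate 1, and the log2 fold change was -0.48 (SE 0.13, adjusted p = 0.014), a call lost without control replicate 3 (adjusted p = 0.071) or knockdown replicate 1 (0.055). The chromosomal passenger genes AURKB (-0.41, adjusted p = 0.051) and BIRC5, which encodes survivin (-0.44, 0.057), missed the threshold, as did the centrosome kinase NEK2 (-0.42, 0.16). Without control replicate 1 all 5 of these genes were called lower.

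The spindle checkpoint, which holds anaphase until chromosomes are attached, had 4 of 5 genes lower and a median of -0.58. MAD2L1 encodes the protein that binds and blocks CDC20. Its levels were 10.2, 13.3 and 13.0 RPM in the controls and 7.17, 6.28 and 7.27 RPM in the knockdowns (chr4:120976763-120988229 on hg19, minus strand). The fall to 56.7% of control, a log2 change of -0.81 (SE 0.11, adjusted p = 0.00021), was among the 3 deepest of the 56. TTK, the kinase that starts checkpoint signalling, had 3.23, 4.56 and 4.59 RPM against 2.82, 2.18 and 2.39 RPM (log2 fold change -0.73, SE 0.16, adjusted p = 0.0047). BUB1, a checkpoint kinase at the kinetochore, had 6.17, 7.99 and 8.82 RPM against 4.98, 4.70 and 5.59 RPM (log2 fold change -0.58, SE 0.13, adjusted p = 0.0056). None of the 3 genes had overlapping libraries. BUB3 moved less, with a log2 change of -0.20 (SE 0.06, adjusted p = 0.014), and lost its call without control replicate 3 (0.060) or knockdown replicate 3 (0.068). BUB1B missed the threshold at -0.53 (adjusted p = 0.052).

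In the centromere and kinetochore group, which joins chromosomes to microtubules, 6 of 10 genes were lower, and the median was -0.53. The 3 largest falls were of subunits of the constitutive centromere network that sits on CENPA chromatin. CENPM had 1.32, 1.70 and 1.85 RPM in the controls and 0.762, 1.07 and 0.784 RPM in the knockdowns, and CENPI had 4.49, 5.13 and 5.68 RPM against 3.00, 2.73 and 2.60 RPM. CENPK had 5.17, 5.23 and 6.0 RPM against 3.54, 3.07 and 2.96 RPM. In each of the 3 genes the groups were apart. Their log2 fold changes were -0.88 (SE 0.21, adjusted p = 0.0065) for CENPM, -0.87 (SE 0.13, 0.00029) for CENPI and -0.77 (SE 0.12, 0.00042) for CENPK. CENPM rested on as few as 17 reads in a library, so its size is the least certain of the 3.

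CENPA, the centromeric histone H3 variant, fell at -0.66 (SE 0.20, adjusted p = 0.024), and CENPF, a large kinetochore and nuclear matrix protein, at -0.52 (0.017). CENPA lost its call when any library other than control replicate 1 or knockdown replicate 1 was left out (adjusted p 0.059 to 0.12), and CENPF lost it without control replicate 3 (0.075) or knockdown replicate 2 (0.063). The 4 subunits of the NDC80 complex, which holds the microtubule end, differed in their calls. SPC24 was called lower at -0.54 (SE 0.14, adjusted p = 0.0094), NDC80 (-0.48, 0.067) and NUF2 (-0.33, 0.30) missed the threshold, and SPC25 was at -0.04 with a 95% interval of -0.55 to 0.48. SPC25 had 0.910, 1.20 and 1.05 RPM against 1.26, 1.11 and 0.748 RPM, and its interval includes the values of its partners. The ratio of SPC24 to SPC25 had an exact permutation p of 0.2 and that of NDC80 to NUF2 one of 0.9. The motor CENPE did not pass at -0.30 (adjusted p = 0.073).

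Kinesins, the motors that build the spindle and move chromosomes, showed the narrowest range. Among the 9 kinesin genes 7 were lower, and the 9 log2 fold changes lay between -0.53 and -0.34. KIF18A, which dampens chromosome movement at the metaphase plate, had 3.99, 4.06 and 4.67 RPM in the controls and 3.14, 2.60 and 3.06 RPM in the knockdowns, with a log2 change of -0.53 (SE 0.13, adjusted p = 0.0063). KIF2C, a microtubule depolymerase at centromeres, had 5.49, 8.02 and 7.75 RPM against 5.42, 4.01 and 5.81 RPM, and its libraries overlapped (log2 fold change -0.48, SE 0.17, adjusted p = 0.043). The chromokinesin KIF4A had 6.08, 7.99 and 8.23 RPM against 5.33, 4.65 and 6.06 RPM (log2 fold change -0.47, SE 0.14, adjusted p = 0.018). In both KIF2C and KIF4A knockdown replicate 2 was lowest and control replicate 1 was close to the knockdowns. KIF14 (-0.45), KIF23 (-0.40), KIF11 (-0.39) and KIF20B (-0.38) were also called, with adjusted p between 0.013 and 0.036. KIF15 (-0.52, 0.055) and KIF20A (-0.34, 0.081) were not. The count of 7 depended both on single libraries and on the processing. Leaving out control replicates 1, 2 and 3 in turn gave 9, 3 and 1 kinesins called lower. Leaving out knockdown replicates 1, 2 and 3 in turn gave 5, 2 and 4. With all libraries kept, dropping the intensity trend gave 1, a replicate block 3 and quantile scaling 4. Thinning gave 5 and library totals 6. The offset of 5 reads, both filters, trimmed-mean scaling, robust variances and voom each gave 7.

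Of the 5 spindle assembly genes, 3 were lower, and the median was -0.47. HMMR, a spindle pole protein, had 2.91, 4.86 and 4.79 RPM in the controls and 2.78, 2.35 and 2.49 RPM in the knockdowns, with a log2 change of -0.68 (SE 0.19, adjusted p = 0.014). TPX2, which activates Aurora A on the spindle, had 24.6, 33.2 and 31.8 RPM against 21.5, 18.5 and 19.8 RPM (log2 fold change -0.57, SE 0.11, adjusted p = 0.0014). NUSAP1, a microtubule bundling protein, had 6.17, 7.63 and 7.55 RPM against 5.29, 4.40 and 5.74 RPM (log2 fold change -0.47, SE 0.13, adjusted p = 0.012). The libraries of these 3 genes did not overlap, although control replicate 1 was close to the knockdowns in HMMR and NUSAP1. Without control replicate 3 the adjusted p was 0.073 for HMMR and 0.058 for NUSAP1, and the count was then 1 of 5. DLGAP5 (-0.46, adjusted p = 0.067) and ASPM (-0.43, 0.079) missed the threshold, and without control replicate 1 all 5 were called.

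All 4 genes of anaphase onset were lower, with a median of -0.70, and this count of 4 was the same in each of the 17 other fits run. CDC20, the activator of the anaphase-promoting complex (APC/C), had 13.2, 17.1 and 16.3 RPM in the controls and 8.87, 9.01 and 9.69 RPM in the knockdowns (chr1:43824626-43828874 on hg19, plus strand). UBE2C, its ubiquitin-conjugating enzyme, had 6.28, 8.79 and 7.87 RPM against 4.53, 4.01 and 4.95 RPM. ESPL1, which encodes separase, the protease that cuts cohesin, had 5.84, 7.26 and 7.03 RPM against 4.53, 4.10 and 4.13 RPM. In these 3 genes the highest knockdown was below the lowest control. The log2 fold changes were -0.75 (SE 0.10, adjusted p = 0.00017) for CDC20, -0.75 (SE 0.13, 0.0011) for UBE2C and -0.65 (SE 0.11, 0.00089) for ESPL1. PTTG1, which encodes securin, the inhibitor of separase, fell with it at -0.53 (SE 0.09, adjusted p = 0.00069).

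All 4 cytokinesis genes were also called lower, with a median of -0.56. RACGAP1, a subunit of centralspindlin, had 17.0, 21.5 and 19.4 RPM in the controls and 13.5, 11.8 and 12.5 RPM in the knockdowns, with a log2 change of -0.61 (SE 0.09, adjusted p = 0.00038). ANLN, which encodes the contractile ring scaffold anillin, had 22.3, 32.6 and 33.8 RPM against 19.6, 17.2 and 20.4 RPM (log2 fold change -0.61, SE 0.14, adjusted p = 0.0045). Both genes had separate groups. PRC1, which bundles the central spindle, had 13.8, 20.7 and 19.8 RPM against 14.0, 10.1 and 13.6 RPM, and control replicate 1 lay inside the knockdown range. Its log2 fold change was -0.52 (SE 0.16, adjusted p = 0.021), and the call was lost without control replicate 3 (0.088) or knockdown replicate 2 (0.081). ECT2, which activates RhoA at the cleavage site, moved little, at -0.16 (SE 0.06, adjusted p = 0.047). Its call was lost in 10 of 17 other fits. Among these were the fits without control replicate 2 or 3 or knockdown replicate 2 or 3 (adjusted p 0.109 to 0.151). The count of 4 became 2 without control replicate 3 or knockdown replicate 2, and also without the intensity trend or with a replicate block. It was 3 with no filter, library totals, trimmed-mean or quantile scaling or robust variances.

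Among the 6 genes of chromosome structure, 5 were lower, and SMC4 did not pass. NCAPH, a condensin I subunit, had 3.44, 5.69 and 4.85 RPM in the controls and 3.05, 2.90 and 3.31 RPM in the knockdowns (log2 fold change -0.56, SE 0.17, adjusted p = 0.022). TOP2A, the topoisomerase that untangles sister chromatids, had 25.1, 37.4 and 35.4 RPM against 24.5, 19.9 and 24.5 RPM (log2 fold change -0.49, SE 0.14, adjusted p = 0.014). NCAPG, another condensin I subunit, had 7.28, 10.5 and 9.87 RPM against 6.90, 6.23 and 6.31 RPM (log2 fold change -0.49, SE 0.13, adjusted p = 0.011). In all 3 genes control replicate 1 was only just above the knockdowns. MKI67, the proliferation marker that coats mitotic chromosomes, had 34.6, 51.2 and 46.4 RPM against 35.4, 27.6 and 34.3 RPM, and control replicate 1 was below knockdown replicate 1. Its log2 fold change was -0.43 (SE 0.13, adjusted p = 0.023). Without control replicate 3 the count of 5 became 1, with adjusted p of 0.082 for NCAPH, 0.062 for TOP2A, 0.055 for NCAPG and 0.085 for MKI67. Without knockdown replicate 2 it became 2 and without control replicate 2 it became 3, with MKI67 at 0.090 and 0.053. With all libraries kept, the count was 2 without the intensity trend and 3 with robust variances.

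SMC2 and SMC4 bind each other as the ATPase subunits of condensin. SMC2 had 19.3, 23.0 and 23.9 RPM in the controls and 16.9, 14.0 and 17.1 RPM in the knockdowns, with a log2 change of -0.46 (SE 0.10, adjusted p = 0.0038) that was called in every other fit. SMC4 had 34.0, 42.1 and 40.1 RPM against 42.2, 35.1 and 38.2 RPM, with a log2 change of -0.01 and a 95% interval of -0.20 to 0.19. The ratio of SMC2 to SMC4 was 0.567, 0.546 and 0.595 in the controls and 0.402, 0.399 and 0.449 in the knockdowns, without overlap (exact permutation p = 0.1, the smallest possible, pair chosen after the values were seen). The sign of SMC4 turned when library totals (0.012) or quantile normalization (0.033) were used, while its size stayed near 0.

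**Figure D4:**
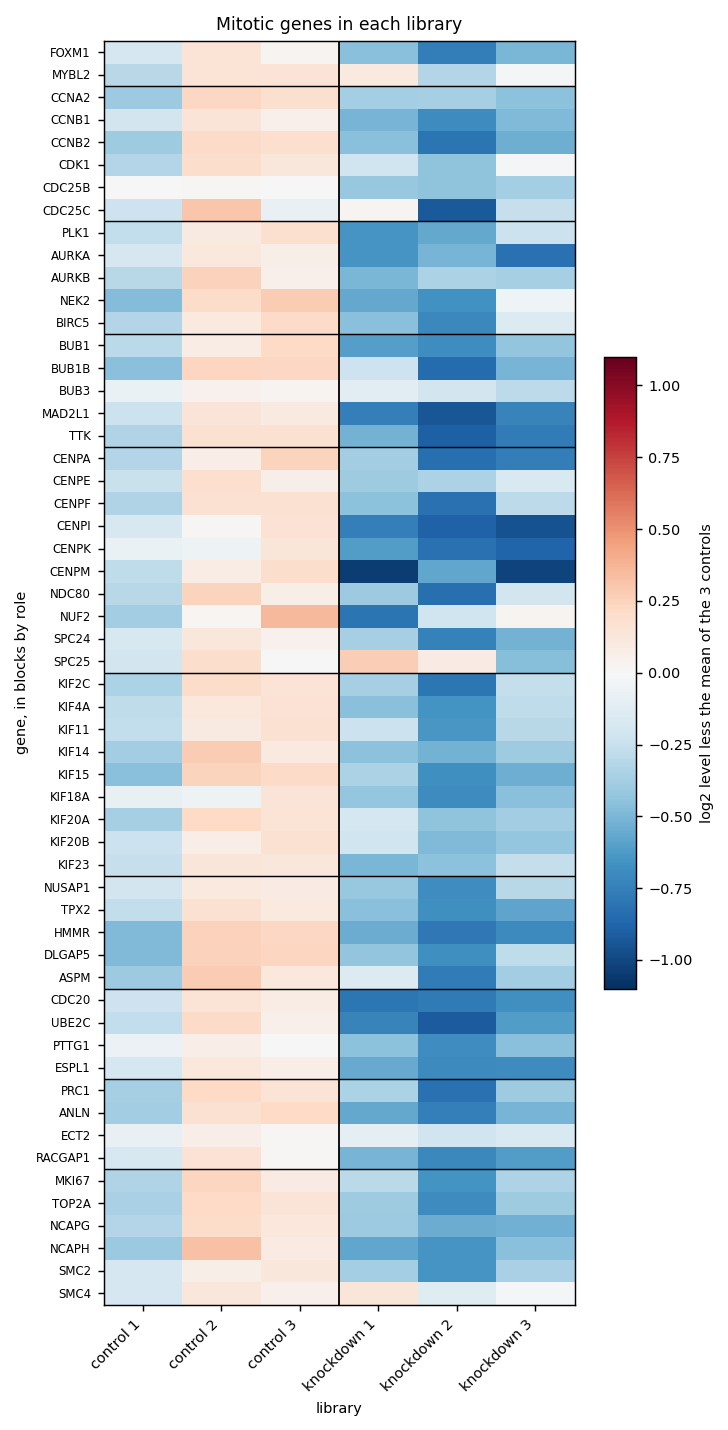
Log2 level of each gene in each library less the mean of the 3 controls, in blocks by role, with blue for lower and red for higher. Control replicate 1 is blue for nearly all genes, knockdown replicate 2 is the darkest column, and SMC4, SPC25 and MYBL2 are pale or mixed across the knockdowns.

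Per kilobase of exon (GENCODE 29 exon unions), the highest control levels of the 56 were those of BUB3 at 10.6, CCNB1 at 10.3, CDC25B at 9.26, AURKA at 8.44 and TPX2 at 8.28 RPM per kb. The lowest were CDC25C at 0.376, KIF15 at 0.534 and SPC25 at 0.573 RPM per kb. The size of the fall did not follow the number of reads. Spearman's rho between log2 fold change and mean normalized reads, not scaled to length, was 0.11 across the 56 genes. These genes share the same 6 libraries and are not independent. Another listed gene overlapped 32 of the 56 on hg19, in 11 cases a more abundant one. Of the 24 without any overlap, 18 were called lower, with a median of -0.50.

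Of 64 further mitotic genes, of kinetochore, spindle and cytokinesis, 35 were lower, 1 was higher (KIF2A, 0.16) and 28 did not pass. Of all genes tested, 23.5% were called lower and 17.5% higher. The median over the 64 was -0.38, and 57 of the 64 had a negative log2 fold change, against 55.1% of all genes tested. The 3 with the lowest adjusted p were CENPW (-0.95, SE 0.11, adjusted p = 5.2e-05), a histone-fold protein of the inner kinetochore, TRIP13 (-0.79, SE 0.10, 0.00011), the ATPase that recycles MAD2, and the chromokinesin KIF22 (-0.65, SE 0.08, 0.00012). Control replicate 1 was the lowest control for 55 of these 64. Without control replicate 3, 24 of the 64 were called lower, and 16.8% of all genes tested.

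Cohesin holds the sister chromatids together until separase acts. Of 12 cohesin genes 6 were higher and 2 were lower, with a median of 0.10. Of all genes tested, 17.5% were called higher and 23.5% lower. The regulator PDS5B (0.41, SE 0.05, adjusted p = 0.00012), the loader NIPBL (0.37, SE 0.05, 0.00031) and the subunit STAG2 (0.25, SE 0.04, 0.00086) were higher, and the loader subunit MAU2 and the acetyltransferase ESCO2 were the 2 called lower, both named after their values were seen. The count of 2 became 1 without control replicate 2 or 3 or knockdown replicate 2 or 3. Of 17 APC/C subunits and regulators 5 were lower and 1 higher, where 23.5% and 17.5% of all genes tested were, so the share called lower was near that of all genes. The median was -0.05, and 3 were lower without control replicate 3 or knockdown replicate 3. With quantile normalization 4 were lower and 3 higher. CDC23 fell (-0.73, SE 0.08, adjusted p = 3.9e-05) and ANAPC5 fell slightly (-0.23, SE 0.04, 0.0011), while ANAPC16 rose (0.52, SE 0.06, 4e-05). CDC23 lies opposite KIF20A, and with the strand setting not given here, reads cannot be assigned where they overlap.

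Of 12 genes, 11 for MuvB and DREAM subunits and DYRK1A, the kinase that promotes DREAM assembly, 3 were lower and 3 higher, with a median of 0.00. Of all genes tested, 23.5% were called lower and 17.5% higher, so the share of the 12 called lower was near that of all genes. DYRK1A rose (0.45, SE 0.05, adjusted p = 4.8e-05), as did the E2F partner TFDP2 (0.29, SE 0.06, 0.0039), and the MuvB subunit LIN52 fell (-0.60, SE 0.13, 0.0033). Without knockdown replicate 2, 1 of the 12 was lower and 4 were higher. Of the 9 tested genes of G2 entry control 2 were higher and 3 lower, where 17.5% and 23.5% of all genes tested were. CDKN1A, which encodes p21, went up from 1165 ± 91.0 to 2169 ± 122 RPM (SD, n = 3). On the log2 scale this was 0.90 (SE 0.06, adjusted p = 1.5e-06). WEE1, the kinase that holds CDK1 inactive, rose (0.43, SE 0.06, 0.00018), and the checkpoint kinase gene CHEK1 fell (-0.52, SE 0.07, 0.00027). CDKN1A, WEE1 and CHEK1 kept their direction and call in all 17 other fits.

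Genes of G1/S and DNA replication are expressed earlier in the cycle. Of 23 tested, 18 were lower, 1 was higher (TYMS, 0.61) and 4 did not pass, with a median of -0.56. Among all genes tested, 23.5% were called lower and 17.5% higher. E2F1 (-1.08, SE 0.09, adjusted p = 8.9e-06), the helicase subunit MCM6 (-0.75, SE 0.08, 2.7e-05) and the ribonucleotide reductase subunit RRM1 (-0.56, SE 0.06, 3e-05) had the lowest adjusted p. Their summed level was 405, 449 and 453 RPM in the controls and 336, 326 and 353 RPM in the knockdowns. Control replicate 1 was again the lowest control, for 19 of 23 genes. Set against the mean of the controls, its median over the 23 was -0.12 (log2), and the medians of the knockdowns were -0.51, -0.60 and -0.36. The difference between this list and the 56 genes was not tested.

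**Figure D5:**
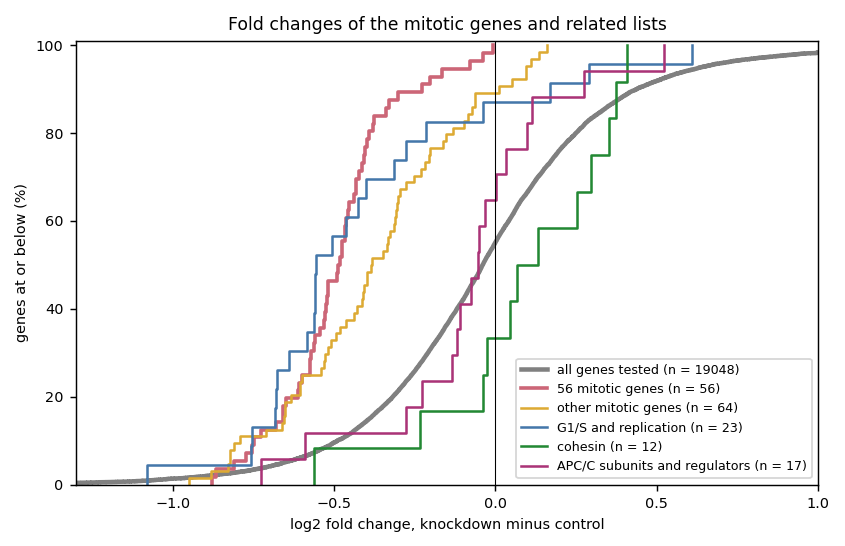
Cumulative share of genes at or below each log2 fold change, knockdown minus control, for all 19048 genes tested, the 56 mitotic genes and other lists. The curve of the 56 lies wholly left of 0 with a median of -0.49, and the curve of all genes, part of which lies beyond the axis, is centred at -0.04.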

How the data were processed

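Gene expression was measured in 6 polyA RNA libraries, 3 per group, read as single 50 bp reads per the labels' protocols. Bowtie2, featureCounts and hg19 are named in the submitters' processing notes, without versions. The annotation release and strand setting are not given in the sources used here. The authors deposited 1 table of log2 values. Undoing an offset of 0.5 reads and an effective library size gave whole reads (within 0.001) for 100% of values, so RPM here are recovered reads scaled to the effective size, and 3 reads, which a count of 0 allows, were 0.0596 to 0.134 RPM. This floor covers counting error only. Chi-square per degree of freedom between replicates was 2.69 to 10.1, so each library counted once.

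The design allowed for linear or log2 values. Since the table was log2, limma 3.58.1 (R 4.3.3; lmFit and eBayes with an intensity trend, two-sided) was run on it as deposited, for the 19048 genes with a mean of at least 10 normalized reads, with Benjamini-Hochberg adjustment and a threshold of 0.05. Fold changes include the 0.5-read offset and understate those of low genes. Nothing says that replicates came from separate cultures, so p-values measure only the spread between these libraries, which may be technical. The fit was tested on simulated data. Tables and figures were made with Python 3.11.15, numpy 2.4.6, pandas 2.3.3 and matplotlib 3.10.9.

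The 56 members and all lists were chosen with earlier results of these data known. Values in every library are given for the 3 called genes with the largest change in each of 10 role groups and for MKI67, TOP2A, CCNB1, CDK1, PLK1, FOXM1 and MYBL2. From each of 6 pathway lists the 3 genes with the lowest adjusted p are named, and CDKN1A. SMC2, SMC4 and SPC25 are shown per library by choice after their values were seen. Alternatives changed the offset, filter, scaling, variance model and depth, added a replicate block or left out a library. The result of 1 gene outside the 56 is not reported here.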

Additional observations from a re-analysis of the deposited data

How the results depend on the processing

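In 17 other fits the count of the 56 genes called higher was 0, and the median log2 fold change and the call of sin-lncRNA kept their direction, the median lying between -0.65 and -0.41. The count called lower was 35 to 40 under the offset of 5 reads, both filters, library totals, trimmed-mean and quantile scaling, robust variances, voom and thinning, and fell to 23 without the intensity trend. Of all genes tested, 12.2% to 28.2% were called lower in the former fits and 19.4% without the trend. With 1 library left out, 20 to 51 of the 56 were called lower, and 16.8% to 22.6% of all genes tested. The count was 20 without control replicate 3 (16.8% of all genes), 27 without knockdown replicate 2 (20.7%) and 51 without control replicate 1 (21.9%). Over these same fits the count of 64 other mitotic genes was 24 to 44. Of the 40 genes called, 20 kept the call in every fit that tested them (CENPM was not tested with the filter of at least 50 reads), 20 lost it in at least 1 and 0 changed sign. Of the 16 others, 11 gained a call in at least 1 fit. SPC25 turned to 0.041 with the offset of 5 reads and 0.048 after thinning (-0.19 to 0.18 with a library left out), SMC4 to 0.012 with library totals and 0.033 with quantile normalization (-0.099 to 0.057), and MYBL2 to 0.042 without knockdown replicate 2 (-0.23 to 0.042). The causes were not tested.

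Replicates are numbered alike in both groups. Same-numbered libraries did not deviate together over the genes tested (correlations -0.15, -0.18 and 0.07). With 3 libraries per group this cannot exclude a shared culture or day, so whether the numbers pair them is not known. With a replicate block, 31 of the 56 genes were called lower, and 19.5% of all genes tested. Depth limits genes such as CDC25C, CENPM and SPC25, with 15 to 21 reads in their lowest library.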
